A study of Homo sapiens with 54 samples.

Results

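OPRK1, DAPK1, CBLN2, LRRN1 and CAMK2N1 are 5 genes whose RNA was lower in LNCaP prostate cancer cells treated with estradiol than in vehicle-treated cells. They were picked for that difference, and they are 5 of the 19225 gene rows measured in the series. The fall under estradiol in LNCaP is therefore a description of how they were chosen and carries no test here. The libraries that the choice did not use give the response to estradiol in LNCaP when enzalutamide was also present, and every response in the other lines. The responses of LNCaP to enzalutamide and to OSU-ERb-12 share the vehicle libraries of the choice, and its response to enzalutamide in the presence of estradiol shares the estradiol libraries.

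The study sequenced total RNA from 3 human prostate cancer cell lines to characterise the functions of estrogen receptor beta. LNCaP was derived from a metastasis in a lymph node. C4-2 descends from LNCaP passaged in castrated mice, and 22Rv1 was established from a xenograft that relapsed after castration. All 3 were grown in medium with fetal bovine serum, so that hormones of the serum were present in every group. The 6 treatments of each line were the ethanol vehicle, estradiol at 100 nM (E2), the compound OSU-ERb-12 at 100 nM (OSU), enzalutamide at 1 µM (Enza), and the combinations E2+Enza and OSU+Enza at the same doses. These are 18 groups of 3 libraries each, 54 libraries in all, described by the labels as biological triplicates. The time was 12 h per the treatment protocol. The labels of the OSU+Enza groups name their first agent only by the letters WT, which also mark the OSU groups in the titles, and it was read as OSU-ERb-12 on that ground.

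Steroid hormones act through nuclear receptors that raise the transcription of some genes and lower that of others when hormone is bound. In prostate cells androgen is the best known of these hormones, and enzalutamide is a drug that blocks its action. The 5 genes belong to separate families. OPRK1 encodes the kappa opioid receptor, a G protein-coupled receptor for dynorphin peptides. DAPK1 encodes a calmodulin-regulated kinase known for its part in cell death and autophagy. CBLN2 encodes a secreted protein of the cerebellin family that binds neurexins at synapses, LRRN1 a neuronal transmembrane protein with leucine-rich repeats, and CAMK2N1 an inhibitor of the kinase CaMKII.

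The values decode to 32819568 to 52417050 reads per library, and levels are given as counts per 1000000 reads (CPM), so that a single read stood for 0.0204 to 0.0323 CPM. A ± gives the SD over 3 libraries beside a level and the standard error beside a log2 fold change. Fold changes are on the scale log2(CPM + 0.5) and so understate changes of low genes. The test was limma with Benjamini-Hochberg adjustment over all genes tested in a line, called at an adjusted p of 0.05, two-sided. Whether groups of libraries overlapped is a description of the 5 genes, and its share over all genes was not counted. The 8 luminal prostate markers summed to 2060 to 5660 CPM over the libraries of LNCaP, 2870 to 5670 in C4-2 and 709 to 1280 in 22Rv1. Of the neuroendocrine list 5 of 8 genes were analysed, with sums of 10.2 to 16.5, 8.89 to 11.6 and 163 to 173 CPM in these lines, nearly all of it ENO2 in 22Rv1. The 3 of 6 fibroblast markers summed to at most 21.8 CPM and the 2 of 6 leukocyte markers to at most 1.5 CPM. The library C4-2 vehicle 1 is titled C4-2 but tagged as 22Rv1. Over all genes it correlated with C4-2 at 0.9982 and with 22Rv1 at 0.8496, the highest value of any C4-2 library with 22Rv1. The E2 and Enza responses of C4-2 are given with and without it, and leaving it out changed no other call of the 5 genes except 1 of LRRN1 that is named with its value.

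Of the 5 genes, 3 had an entry in RefSeq's promoter table (GRCh38.p14), and these windows are shown as a description. The genes were chosen for a shared fall in LNCaP, and control through these windows was not tested. OPRK1 and CAMK2N1 had no entry. DAPK1 had 2 entries, and the longer is shown; the other has 64 bases. Each window is given 5′ to 3′ on the gene's strand and stops where an annotated untranslated region begins. The capitals mark TGACC, the reverse complement of the estrogen receptor half-site GGTCA, searched on both strands. The windows of DAPK1 and CBLN2 belong to starts inside the annotated gene.
LRRN1, chr3:3799181-3799430, plus strand: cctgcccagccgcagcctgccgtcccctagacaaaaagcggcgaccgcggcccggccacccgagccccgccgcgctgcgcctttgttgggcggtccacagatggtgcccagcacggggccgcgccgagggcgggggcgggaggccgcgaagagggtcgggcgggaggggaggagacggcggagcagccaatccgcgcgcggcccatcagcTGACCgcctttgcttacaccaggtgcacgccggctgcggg
DAPK1, chr9:87498332-87498534, plus strand: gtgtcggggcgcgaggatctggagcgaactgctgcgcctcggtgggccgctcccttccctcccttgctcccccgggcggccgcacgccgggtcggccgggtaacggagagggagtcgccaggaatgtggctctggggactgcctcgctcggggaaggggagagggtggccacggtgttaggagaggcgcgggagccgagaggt
CBLN2, chr18:72544343-72544592, minus strand: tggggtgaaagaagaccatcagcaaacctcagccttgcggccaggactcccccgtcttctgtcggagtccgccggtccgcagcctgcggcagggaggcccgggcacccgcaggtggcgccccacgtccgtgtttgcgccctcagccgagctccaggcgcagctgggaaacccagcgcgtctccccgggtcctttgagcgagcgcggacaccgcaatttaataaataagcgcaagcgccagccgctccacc

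The printed windows are rich in G and C, at 75.6% for LRRN1, 72.4% for DAPK1 and 67.2% for CBLN2, against a median of 58% over 35116 windows of 250 bases. The single half-site lies in the LRRN1 window, and 32.6% of all 250-base windows hold that motif on either strand. The androgen response half-site AGAACA and the TATA box TATAAA were searched on both strands too, and neither was found in these 3 windows. Of all windows, 12.4% of those of 250 bases and 10.2% of those of 203 bases, the length of the DAPK1 window, hold AGAACA, and 10.7% and 7.69% hold TATAAA. These matches describe letters in short windows only.

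OPRK1 (Entrez 4986, chromosome 8, 53225724 to 53251637, minus strand) had 4 separate levels in LNCaP. The 3 vehicle libraries held 4.18, 3.34 and 3.98 CPM, the E2 libraries 1.01, 1.11 and 0.965, the Enza libraries 11.9, 13 and 12.4, and the E2+Enza libraries 2.06, 1.62 and 1.55. None of these 4 groups overlapped another, and the order was E2, E2+Enza, vehicle, Enza. Its level with E2 was 26.9% of vehicle, and with E2+Enza 13.9% of Enza. In bulk RNA such as this, fewer cells that express a gene and less of its RNA per cell cannot be told apart.

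DAPK1 (Entrez 1612, chromosome 9, 87497228 to 87708634, plus strand) had the lowest fold change of all 14251 genes tested between E2 and vehicle in LNCaP. Vehicle libraries held 8.93, 8.86 and 7.9 CPM and E2 libraries 1.21, 1.13 and 1.47. The Enza libraries held 13.6, 15.4 and 14.4 CPM and the E2+Enza libraries 4.39, 3.98 and 3.49. The 4 groups again kept apart, in the same order as for OPRK1. E2 left 14.8% of the vehicle level without Enza, and 27.3% of the Enza level with it.

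CBLN2 (Entrez 147381, chromosome 18, 72536681 to 72638521, minus strand) followed the same order. Its LNCaP levels were 19.0, 21.3 and 22.7 CPM with vehicle, 5.72, 5.84 and 6.69 with E2, 39.6, 40.7 and 44.1 with Enza, and 9.33, 11.8 and 11.7 with E2+Enza. LRRN1 (Entrez 57633, chromosome 3, 3799431 to 3849834, plus strand) held 22.4, 19.5 and 19.8 CPM with vehicle, 7.02, 5.41 and 7.31 with E2, 35.4, 37.8 and 35.5 with Enza, and 11.6, 11.9 and 13 with E2+Enza. Neither gene had overlapping groups among these 4. LRRN1 shares 190 exon bases, 2.97% of its own, with SUMF1 on the other strand, and no source used here says whether the counting used strand, so reads there cannot be assigned.

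CAMK2N1 (Entrez 55450, chromosome 1, 20482391 to 20486210, minus strand) gave up the smallest share of its RNA to E2. Vehicle libraries held 47.8, 49.4 and 54.2 CPM, E2 libraries 21.0, 21.0 and 22.2, Enza libraries 101, 107 and 107, and E2+Enza libraries 31.5, 36.8 and 36.7. E2 left 42.4% of its vehicle level, against 29.0% for CBLN2 and 31.9% for LRRN1. With Enza present these shares of the Enza level were 33.3%, 26.3% and 33.7%. The plot of levels by library shows the same order of groups for each of the 5 genes in LNCaP. The place of E2 below vehicle in that order is the choice itself.

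**Figure D1:**
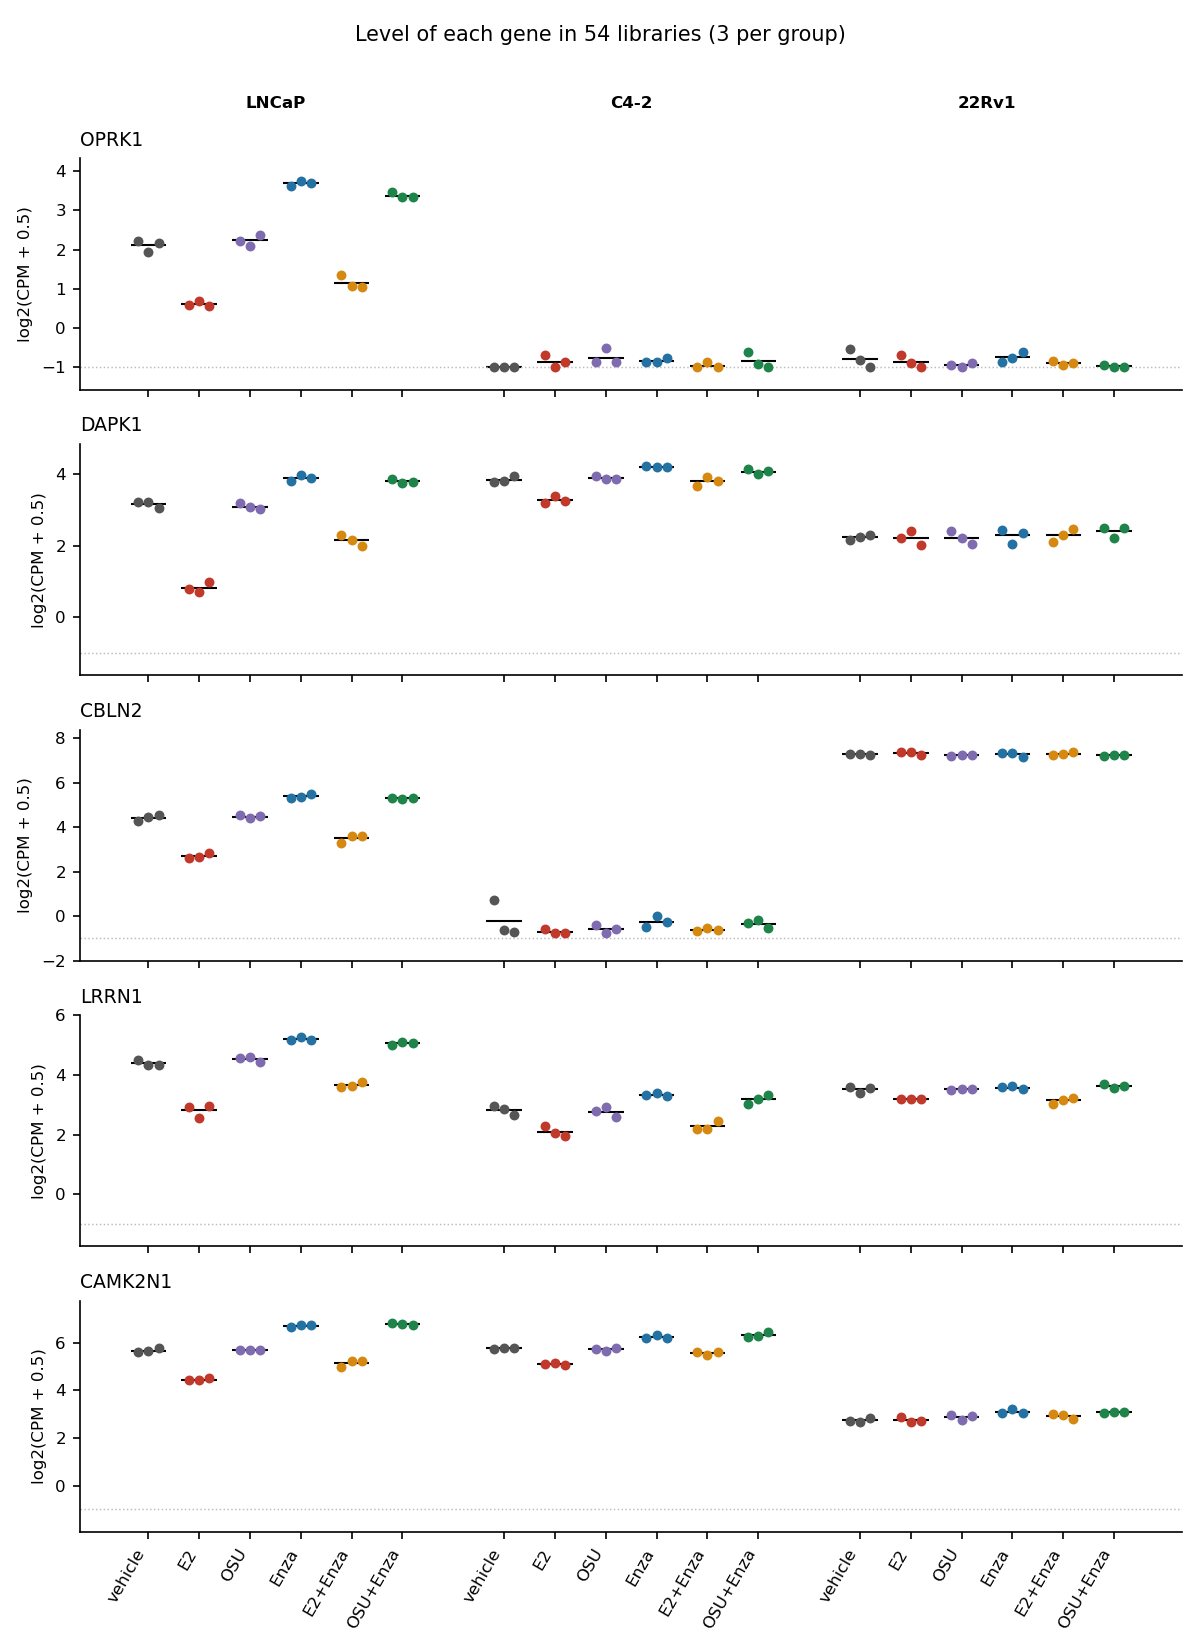
Level of each gene as log2(CPM + 0.5), vertical axis, in each of 54 libraries (points), grouped by line and treatment on the horizontal axis; short bars are the mean of 3 libraries and the dotted line marks 0 reads. In LNCaP the E2 libraries are the lowest and the Enza libraries lie above vehicle for each gene, while OPRK1 lies near the dotted line in C4-2 and 22Rv1, CBLN2 in C4-2 only.

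The fitted differences between E2 and vehicle in LNCaP, which chose the genes, were -1.50 ± 0.11 for OPRK1, -2.36 ± 0.10 for DAPK1, -1.71 ± 0.08 for CBLN2, -1.58 ± 0.08 for LRRN1 and -1.22 ± 0.05 for CAMK2N1. Counted from the lowest fold change of 14251 genes they stood at places 6, 1, 3, 4 and 17. All 5 had E2 libraries below the vehicle libraries, and 11.6% of genes tested were called lower in this comparison; nothing is read from that count, since it is the choice itself.

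Enza raised all 5 genes in LNCaP, where 9.79% of genes tested were called higher. OPRK1 rose from 3.83 ± 0.442 to 12.5 ± 0.547 CPM (n = 3), a log2 fold change of 1.59 ± 0.11 (limma, adjusted p = 1.26e-11) and the highest of all 14251 genes. CAMK2N1 rose from 50.5 ± 3.34 to 105 ± 3.42 CPM, by 1.05 ± 0.05 (limma, adjusted p = 4.47e-15). CBLN2 rose by 0.97 ± 0.08 (adjusted p = 2.14e-10), LRRN1 by 0.80 ± 0.08 (9.94e-09) and DAPK1 by 0.73 ± 0.10 (1.86e-06), all by limma. The vehicle libraries are the same ones that served in the choice of the genes. That choice favours high vehicle values, which leans this comparison toward a smaller rise. The comparison is not independent of the choice, and nothing is read from its count of 5 beside 9.79%.

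In the presence of Enza, in libraries that the choice did not use, E2 lowered all 5 genes in LNCaP. OPRK1 fell from 12.5 ± 0.547 to 1.74 ± 0.278 CPM, a log2 fold change of -2.54 ± 0.11 (limma, adjusted p = 1.7e-16), the lowest of 14251 genes. CBLN2 changed by -1.88 ± 0.08 (adjusted p = 4.87e-17), DAPK1 by -1.75 ± 0.10 (2.25e-14), CAMK2N1 by -1.57 ± 0.05 (1.69e-19) and LRRN1 by -1.54 ± 0.08 (5.66e-15), by the same test. Of all genes tested, 10.9% were called lower.

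In LNCaP, levels with both agents lay between those with E2 alone and those with vehicle. The E2 libraries chose the genes for their low values, so the comparison of E2+Enza with E2 leans toward higher values and is described here without a test. DAPK1 went from 1.27 ± 0.177 CPM with E2 to 3.96 ± 0.449 with E2+Enza, a log2 difference of 1.33. The difference was 0.85 for LRRN1, 0.79 for CBLN2, 0.69 for CAMK2N1 and 0.55 for OPRK1. Of all genes 6.27% were called higher in this comparison, and nothing is read from that beside the 5. As a share of vehicle, the level with both agents was 45.4% for OPRK1, 46.3% for DAPK1, 51.9% for CBLN2, 59.2% for LRRN1 and 69.3% for CAMK2N1.

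The E2 difference with Enza minus that without Enza was -1.04 for OPRK1, -0.35 for CAMK2N1, -0.17 for CBLN2, 0.04 for LRRN1 and 0.60 for DAPK1. It contains the contrast that chose the genes and is given without a test. On this scale the E2 difference of OPRK1 was larger with Enza than without, and that of DAPK1 was smaller.

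**Figure D2:**
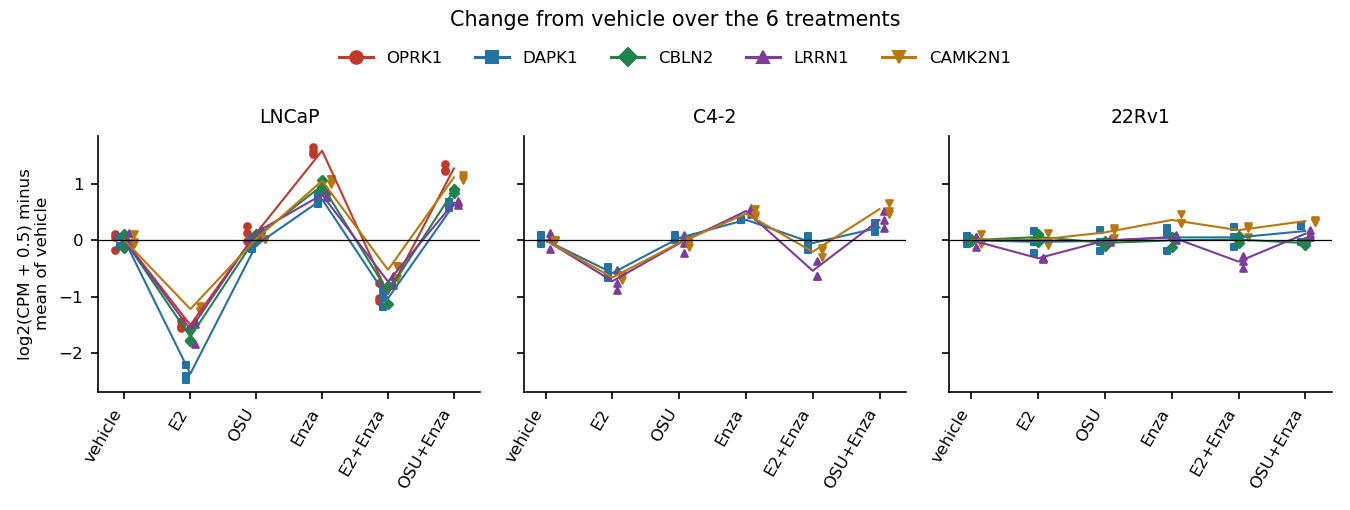
Change of each gene from the mean of its vehicle libraries, vertical axis in log2(CPM + 0.5), over the 6 treatments on the horizontal axis, with 1 panel per line; points are libraries, lines join group means, and genes at or near 0 reads in a line are left out. In LNCaP each gene dips with E2 and peaks with Enza or OSU+Enza, in C4-2 the remaining 3 show the same shape at a smaller size, and in 22Rv1 the points stay near 0 apart from LRRN1 and CAMK2N1.

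In C4-2, a line that played no part in the choice, 3 of the genes passed the filter of at least 1 CPM in at least 3 libraries, and all 3 fell with E2, where 3.11% of 14027 genes were called lower. DAPK1 held 13.3, 13.7 and 15.0 CPM with vehicle and 8.65, 9.97 and 9.01 with E2, a log2 fold change of -0.58 ± 0.07 (limma, adjusted p = 5.71e-06). LRRN1 held 7.24, 6.74 and 5.85 CPM with vehicle and 4.4, 3.67 and 3.37 with E2, a change of -0.72 ± 0.11 (adjusted p = 8.55e-05). CAMK2N1 held 53.4, 54.4 and 54.2 CPM with vehicle and 34.4, 34.9 and 32.8 with E2, a change of -0.66 ± 0.05 (adjusted p = 2.94e-09). No vehicle library overlapped the E2 libraries for any of the 3, as a description only. Without C4-2 vehicle 1 the changes were -0.61, -0.66 and -0.67 for DAPK1, LRRN1 and CAMK2N1, with adjusted p = 2.29e-05, 0.00141 and 5.97e-08 by limma.

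The same 3 genes rose with Enza in C4-2, where 2.73% of genes were called higher. DAPK1 reached 18.2, 18.1 and 18 CPM, a change of 0.36 ± 0.07 (limma, adjusted p = 0.00229). LRRN1 reached 9.64, 9.98 and 9.29 CPM, a change of 0.52 ± 0.11 (adjusted p = 0.00399), and CAMK2N1 reached 73.4, 79.2 and 72.3 CPM, a change of 0.47 ± 0.05 (adjusted p = 9.05e-07). These libraries all lay above vehicle. Without C4-2 vehicle 1 the changes were 0.33, 0.58 and 0.46 in the same order, with adjusted p = 0.0218, 0.00544 and 1.69e-05.

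E2 also lowered the 3 genes in C4-2 cells that had Enza, with 2.94% of genes called lower. LRRN1 fell to 4.09, 4.07 and 5.02 CPM, a log2 fold change of -1.06 ± 0.11 against Enza (limma, adjusted p = 1.93e-07) and the seventh lowest of 14027 genes. CAMK2N1 fell to 47.8, 43.8 and 49.0 CPM (-0.67 ± 0.05, adjusted p = 1.16e-09) and DAPK1 to 12.3, 14.8 and 13.5 CPM (-0.41 ± 0.07, adjusted p = 0.000478). DAPK1 with both agents thus overlapped its vehicle libraries, while LRRN1 and CAMK2N1 with both agents stayed below theirs.

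Compared with E2 alone, E2+Enza raised DAPK1 by 0.53 ± 0.07 (limma, adjusted p = 3.17e-05) and CAMK2N1 by 0.45 ± 0.05 (3.29e-06) in C4-2, where 1.43% of genes were called higher. LRRN1 did not pass the test, at 0.18 with a 95% interval of -0.05 to 0.42 (adjusted p = 0.506), and its groups overlapped. The test of the E2 response with Enza against that without called 0 of the 3 genes in C4-2, against 1.5% of all genes. At an unadjusted p under 0.05 limma had 1, LRRN1 at -0.33 (adjusted p = 0.282), and voom called 0.

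OPRK1 and CBLN2 were near the detection limit in C4-2 and did not enter the tests there. OPRK1 held between 0 and 8 reads in each C4-2 library, at most 0.199 CPM, and all 3 vehicle libraries held 0 reads. CBLN2 held 50 reads (1.13 CPM) in C4-2 vehicle 1 and 7 and 4 reads (0.145 and 0.103 CPM) in the other vehicle libraries. The remaining C4-2 libraries lay between 0.0896 and 0.504 CPM. The high library is the one tagged as 22Rv1, where CBLN2 lay between 143 and 167 CPM; the part of that label conflict in the value was not tested. CBLN2 held 9, 23 and 14 reads in the C4-2 Enza libraries (0.207 to 0.504 CPM) and 6, 8 and 6 in the E2+Enza libraries (0.122 to 0.187 CPM). At so few reads no response is read from these values, and they were not tested.

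In 22Rv1, 4 of the genes were tested, and LRRN1 alone fell with E2, where 10.6% of 14866 genes were called lower. LRRN1 held 11.5, 10.1 and 11.4 CPM with vehicle and 8.71, 8.75 and 8.66 with E2, a log2 fold change of -0.32 ± 0.08 (limma, adjusted p = 0.00412). With Enza present it held 11.5, 11.8 and 11 CPM without E2 and 7.66, 8.45 and 8.95 with E2, a change of -0.43 ± 0.08 (adjusted p = 0.000264), where 3.83% of genes were called lower. Both falls had groups that kept apart. With 1 of 4 genes called beside these backgrounds, nothing particular to the 5 is read from the count in 22Rv1.

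The other 3 genes tested in 22Rv1 showed no call with E2. CBLN2, at 155 ± 2.67 CPM with vehicle and 161 ± 7.75 with E2, differed by 0.05 with a 95% interval of -0.05 to 0.15 (limma, adjusted p = 0.434). DAPK1, at 4.23 ± 0.218 and 4.16 ± 0.649 CPM, differed by -0.03 (-0.30 to 0.24, adjusted p = 0.89). CAMK2N1, at 6.19 ± 0.422 and 6.23 ± 0.513 CPM, differed by 0.01 (-0.18 to 0.20, adjusted p = 0.96). These intervals do not reach the changes called for DAPK1 and CAMK2N1 in C4-2. With Enza present the E2 differences were 0.01 for CBLN2, 0.00 for DAPK1 and -0.18 for CAMK2N1 (adjusted p = 0.933, 0.996 and 0.294).

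Enza alone called 0 of the 4 genes in 22Rv1 by limma, against 0.659% of all genes, with 1 at an unadjusted p under 0.05 and 0 by voom. That gene was CAMK2N1, at 6.01, 5.9 and 6.68 CPM with vehicle and 7.8, 8.68 and 7.77 with Enza, a difference of 0.36 ± 0.09 (adjusted p = 0.0721). Its groups did not overlap, and it became called without 22Rv1 Enza replicate 3 (0.38, adjusted p = 0.0405) and in 1 fit of all libraries (0.000415). E2+Enza against E2 called 0 of 4 (1.2% of all genes), with 0 at an unadjusted p under 0.05 and 0 by voom. The test of the E2 response with Enza against that without also called 0 of 4 (0.424% of all genes), again with 0 unadjusted and 0 by voom. OPRK1 held 0 to 8 reads per 22Rv1 library, at most 0.192 CPM, and was not tested there.

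**Figure D3:**
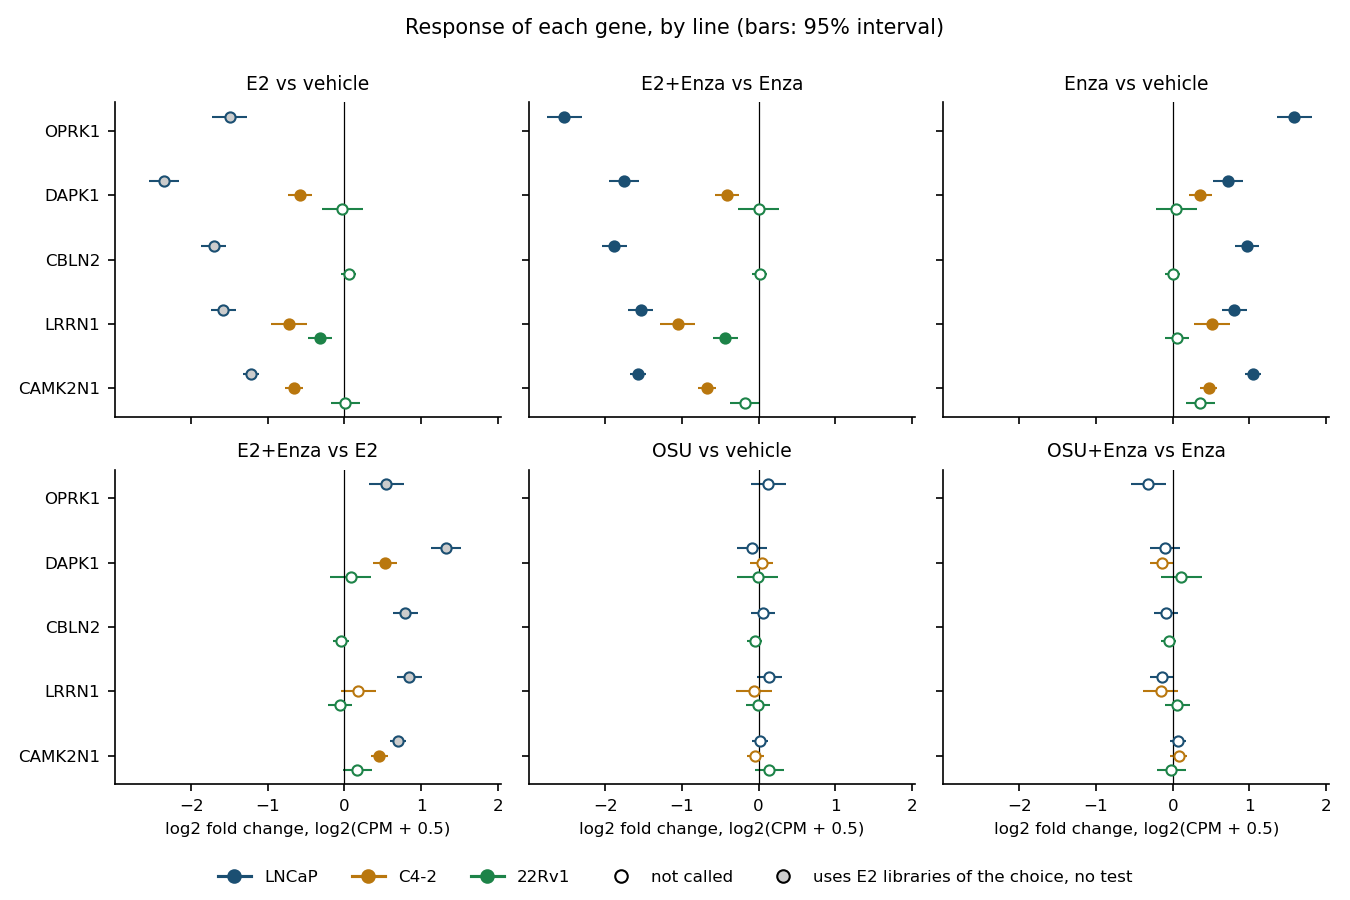
Log2 fold change of each gene on the scale log2(CPM + 0.5), horizontal axis, with its 95% interval, in 6 comparisons (panels) and 3 lines (colours); filled points were called, open points were not, and grey points use the E2 libraries of LNCaP that chose the genes and have no test. The E2 responses with Enza lie between -2.54 and -1.54 in LNCaP and between -1.06 and -0.41 in C4-2, and both OSU panels hold open points only.

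OSU-ERb-12 gave no call in any line for those of the 5 genes that were tested there. In LNCaP, OSU libraries held 4.2, 3.8 and 4.67 CPM of OPRK1, 8.63, 7.93 and 7.6 of DAPK1, 22.7, 20.8 and 22.0 of CBLN2, 23.2, 23.6 and 21.3 of LRRN1, and 51.4, 51.0 and 51.2 of CAMK2N1. All 5 overlapped the vehicle libraries. OSU against vehicle called 0 of 5 genes in LNCaP, 0 of 3 in C4-2 and 0 of 4 in 22Rv1 by limma, with 0 at an unadjusted p under 0.05 and 0 by voom in each. Of all genes, 0.014% were called in LNCaP and 0% in C4-2 and in 22Rv1. The LNCaP comparison uses the vehicle libraries that served in the choice.

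With Enza present, OSU also called 0 of the genes in each line by limma, with 0 by voom, against 0.0982% of all genes in LNCaP, 0% in C4-2 and 0.101% in 22Rv1. At an unadjusted p under 0.05 there was 1 gene in LNCaP and 0 in the other lines. That gene was OPRK1, at 10.5, 9.66 and 9.56 CPM with OSU+Enza against 11.9, 13 and 12.4 with Enza. These libraries did not overlap, and the difference of -0.32 (95% interval -0.55 to -0.09, adjusted p = 0.36) is small beside the -2.54 of E2 in the same cells. The mean OSU response over the 3 lines was read for DAPK1, LRRN1 and CAMK2N1, which passed the filter in every line. It called 0 of the 3 (0% of all genes, 0 unadjusted, 0 by voom). With Enza it also called 0 of the 3 (0.443% of all genes, 0 unadjusted, 0 by voom). OPRK1 and CBLN2 entered that fit only through lines where they are high. The OPRK1 mean with Enza, -0.19, carries the -0.32 of LNCaP and is no test of a response over lines.

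The order of the groups within a line can be read from the levels. In LNCaP, vehicle and OSU overlapped for each gene and sat between E2+Enza and OSU+Enza. Enza and OSU+Enza overlapped for DAPK1, CBLN2 and CAMK2N1 and kept apart for OPRK1 and LRRN1. In C4-2, DAPK1 had its lowest libraries with E2, then an overlapping set of E2+Enza, vehicle and OSU, then OSU+Enza at 15.5 to 17.3 CPM and Enza at 18 to 18.2. LRRN1 in C4-2 had E2 and E2+Enza overlapping at the bottom, vehicle and OSU above them, and OSU+Enza overlapping Enza at the top. CAMK2N1 in C4-2 had E2, then E2+Enza, then vehicle with OSU, then Enza with OSU+Enza. In 22Rv1, LRRN1 had both E2 groups at 7.66 to 8.95 CPM, below the 10.1 to 12.5 CPM of the other 4 groups, and CAMK2N1 had both Enza groups without E2, at 7.77 to 8.68 CPM, above the other 4. DAPK1 stayed between 3.53 and 5.15 CPM in all 22Rv1 libraries.

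With Enza present, the lines differed in the E2 response of DAPK1, LRRN1 and CAMK2N1, the 3 genes that passed the filter in every line, by an F test over 3 lines that called 11.7% of 16026 genes. Adjusted p by limma was 3.29e-13 for DAPK1, 2.95e-08 for LRRN1 and 1.1e-16 for CAMK2N1. The genes were chosen for a strong E2 fall in LNCaP, which favours a larger response there even in libraries the choice did not use. Nothing particular to the genes is therefore read from this F test or from the counts of calls against LNCaP. The response in C4-2 was weaker than in LNCaP by 1.34 for DAPK1, 0.48 for LRRN1 (adjusted p = 0.0173) and 0.90 for CAMK2N1, all 3 called beside 2.57% of all genes in that direction. The LRRN1 call was lost without LNCaP E2+Enza replicate 1 (0.0544) or C4-2 E2+Enza replicate 3 (0.101). The response in 22Rv1 was weaker than in LNCaP by 1.75 for DAPK1, 1.89 for CBLN2, 1.10 for LRRN1 and 1.39 for CAMK2N1, all 4 called beside 4.56% of all genes. It was weaker than in C4-2 by 0.62 for LRRN1 (adjusted p = 0.00103) and 0.49 for CAMK2N1 (0.000123), 2 of 3 genes against 2.85% of all. DAPK1 was not called there (0.41, adjusted p = 0.0967), but was with a pseudocount of 2 CPM (0.37, 0.0352) and without 22Rv1 E2+Enza replicate 1 (0.50, 0.0475). OPRK1 in C4-2 and 22Rv1 and CBLN2 in C4-2 held few reads and entered this fit only through lines where they are high. Their differences from LNCaP carry LNCaP's own change and are no test of a response. They were 2.42 and 2.40 for OPRK1 and 1.51 for CBLN2, and with voom 0.99, 1.88 and 0.83, none of them called by voom (adjusted p = 0.651, 0.207 and 0.567).

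E2 responses without Enza were compared between 22Rv1 and C4-2 only, since the LNCaP response chose the genes. They were weaker in 22Rv1 for DAPK1 by 0.55 (limma, adjusted p = 0.00527), LRRN1 by 0.41 (0.0174) and CAMK2N1 by 0.67 (2.55e-07), where 19.4% of genes were called in that direction. The LRRN1 call was lost without C4-2 vehicle 1 (0.34, adjusted p = 0.0675), without C4-2 E2 replicate 3 (0.33, 0.083) and without 22Rv1 vehicle replicate 2 (0.35, 0.057). CBLN2 and OPRK1 were too low in C4-2 for a test of this difference. That of CBLN2 was 0.54 with all libraries and 0.07 without C4-2 vehicle 1, the library with 50 reads of it.

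The Enza response differed between lines for the same 3 genes by the F test, which called 13.3% of 16026 genes. Adjusted p was 0.00491 for DAPK1, 0.000242 for LRRN1 and 1.25e-07 for CAMK2N1. Between C4-2 and LNCaP, the response of CAMK2N1 was lower in C4-2 (-0.58, adjusted p = 2.38e-05), while DAPK1 (-0.36, 0.136) and LRRN1 (-0.29, 0.186) were not called, 1 of 3 genes against 2.35% of all. With voom DAPK1 was called as well (-0.38, adjusted p = 0.0318). In 22Rv1 the responses were lower than in LNCaP by a difference of -0.68 for DAPK1, -0.97 for CBLN2, -0.75 for LRRN1 and -0.69 for CAMK2N1, all 4 called beside 1.93% of genes. The CBLN2 call was lost at a pseudocount of 0.25 CPM (-0.98, adjusted p = 0.0585). LRRN1 was also lower in 22Rv1 than in C4-2 (-0.46, adjusted p = 0.0192), 1 of 3 against 3.69%, and lost that call without 22Rv1 vehicle replicate 1 (0.0635), C4-2 vehicle replicate 3 (0.0618) or C4-2 Enza replicate 2 (0.0554). The LNCaP side of these comparisons uses the vehicle libraries of the choice. Nothing particular to the genes is therefore read from this F test or from the counts of calls against LNCaP. For the genes at few reads the differences from LNCaP are again no test of a response. They were -1.42 for OPRK1 in C4-2 (0.89 with voom, adjusted p = 0.603), -1.55 for OPRK1 in 22Rv1 (-0.81, 0.752) and -1.01 for CBLN2 in C4-2 (-0.71, 0.501). Without C4-2 vehicle 1 the CBLN2 difference was -0.54.

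With Enza, levels differed between lines for DAPK1, LRRN1 and CAMK2N1, as they did for 93.1% of genes tested, and OPRK1 and CBLN2 entered that fit only through lines where they are high. CBLN2 was highest in 22Rv1 (155 ± 10.4 CPM), with 41.5 ± 2.32 in LNCaP and 0.345 ± 0.15 in C4-2. CAMK2N1 was highest in LNCaP (105 ± 3.42 CPM), with 75 ± 3.71 in C4-2 and 8.08 ± 0.519 in 22Rv1. DAPK1 was higher in C4-2 (18.1 ± 0.15 CPM) than in LNCaP (14.5 ± 0.863), by 0.31 (limma, adjusted p = 0.00765, with 63.1% of genes called between these lines), and lowest in 22Rv1 (4.42 ± 0.689). LRRN1 was highest in LNCaP (36.2 ± 1.35 CPM), and its 11.4 ± 0.375 in 22Rv1 and 9.63 ± 0.346 in C4-2 differed by 0.24 (adjusted p = 0.0172, with 83.6% of genes called). The OPRK1 levels of 22Rv1 and C4-2 differed by 0.09, both near 0 reads, which is no test of a difference. The genes shared an order of treatments in LNCaP, where the low place of E2 comes from the choice, and no order of lines.

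Relatives of the 5 genes were taken from fixed lists. Of 7 opioid receptors and peptide precursors listed, 1 was in the table, OPRL1, the nociceptin receptor, at no more than 0.552 CPM, and none was tested. Of 4 DAPK-related kinases tested in LNCaP, Enza raised 1, DAPK2 (0.40, adjusted p = 0.0138), and E2 in the presence of Enza lowered DAPK2 (-0.34, 0.0305) and raised STK17B (0.29, 0.000783). DAPK2 was also higher with E2+Enza than with E2 in LNCaP (0.40, adjusted p = 0.0164), the direction of DAPK1, and STK17B was lower (-0.59, 5.95e-08). None of the 4 was called in the E2 and Enza comparisons of C4-2 or 22Rv1. Of the 2 LRRN relatives tested in each line none was called in these comparisons. The list medians in LNCaP with E2+Enza against Enza were 0.0451 for the DAPK list and -0.0349 for the LRRN list, beside 0.00214 for all genes.

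CBLN2's relatives and binding partners differed by line. In LNCaP 2 of 7 were tested, and NRXN3, a neurexin, fell with Enza (-0.51, adjusted p = 0.00118) and rose with E2 in its presence (0.53, 0.000599). In 22Rv1 3 were tested, and CBLN4, another cerebellin, fell with E2 (-0.73, adjusted p = 0.00114) and with E2 in the presence of Enza (-1.12, 5.63e-06), while CBLN2 itself showed no call there. Of 6 CaMKII subunits, inhibitors and calmodulin genes tested in LNCaP, Enza raised CALM2 (0.14, adjusted p = 0.00465) and CALM3 (0.11, 0.0205) and lowered none. E2 in the presence of Enza lowered CALM2 (-0.11, adjusted p = 0.0283). In C4-2 CAMK2D rose with E2 (0.26, adjusted p = 0.0464) and with E2 in the presence of Enza (0.33, 0.00692), and in 22Rv1 CAMK2N2, the other inhibitor of the CAMK2N family, rose with E2 (0.24, 0.0274), as did CALM2 (0.18, 0.0101).

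Genes known to be lowered by androgen were set beside the 5. In LNCaP 8 of the 9 listed were tested. With Enza 6 rose and none fell, with a list median of 0.492 beside 0.00202 for all genes. With E2 in the presence of Enza 7 fell and none rose, with a median of -0.671 beside 0.00214, and the 3 with the smallest p were ACKR3, a chemokine scavenger receptor (-0.60 ± 0.04), the cholesterol exporter ABCA1 (-2.02 ± 0.15) and BCHE, a cholinesterase (-0.86 ± 0.09). In C4-2 5 were tested: E2 lowered 1 (ACKR3, -0.85 ± 0.06), Enza raised 3 and E2 in the presence of Enza lowered 2. UGT2B15 and UGT2B17 on the list share reads with near-identical copies and are uncertain.

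In 22Rv1 5 of the 8 androgen-repressed genes tested fell with E2, with a median of -0.457 beside 0.0334 for all genes, and 5 fell with E2 in the presence of Enza, with a median of -0.499 beside 0.00233. Among them were CCN3, a matricellular protein (-0.93 and -1.44), and CDH2, the gene of N-cadherin (-0.92 and -0.99). LRRN1 was the only one of the 5 chosen genes called in those comparisons. Genes known to be raised by androgen moved the other way in each line. With Enza 7 of 8 fell in LNCaP, 7 of 8 in C4-2 and 5 of 7 in 22Rv1, and with E2 in the presence of Enza all tested rose, 8, 8 and 7. The lists were chosen with earlier results of these libraries known, and their counts are not independent evidence of direction.

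**Figure D4:**
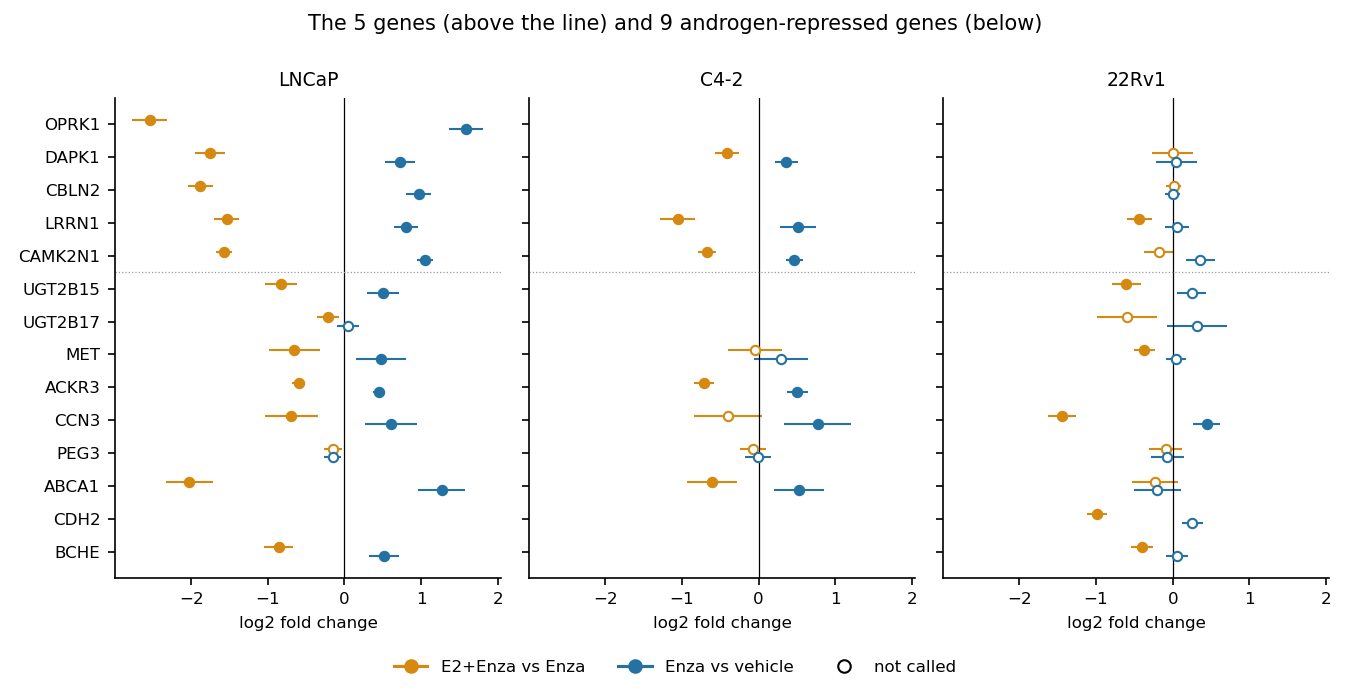
Log2 fold change on the scale log2(CPM + 0.5), horizontal axis, with its 95% interval, for the 5 genes (above the dotted line) and 9 androgen-repressed genes (below it), by line; orange is E2+Enza against Enza, blue is Enza against vehicle, and open points were not called. In LNCaP the 5 genes and 7 of the listed genes have filled orange points left of 0, and genes with no point in a line did not pass its filter.

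The genes most like each of the 5 over the 18 group means, each gene centred within its line, were taken from 15861 candidates by Pearson correlation, as a description. They were KDM6A (a histone demethylase, 0.974), TLL1 (0.97) and INTS8 (0.963) for OPRK1, and TGM3 (a transglutaminase, 0.973), ST7 (0.969) and NFKB1 (0.969) for DAPK1. For CBLN2 they were KDM6A (0.986), SCNN1A (an epithelial sodium channel subunit, 0.976) and NFKB1 (0.971). For LRRN1 they were the pseudogene GUSBP1 (0.98, uncertain because of its copies), ENC1 (0.98) and PLCH1 (0.977), and for CAMK2N1 NIPAL1 (0.989), TMEM144 (0.985) and MANBA (0.984). Between the 5 genes themselves the correlation ran from 0.841 (OPRK1 and LRRN1) to 0.967 (DAPK1 and CBLN2), where the shared choice enters. The points share libraries and depth, and OPRK1 lay near 0 reads in each group of C4-2 and 22Rv1, CBLN2 in each group of C4-2.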

How the data were processed

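The 54 libraries fall into 18 groups of 3. Per the labels' protocols the RNA was taken up in TRIzol and sequenced as stranded total RNA. FastQC, Trimmomatic, featureCounts, edgeR and hg38 are named per the submitters' processing notes, the design text names Rsubread, and no version is given in the sources used here. The deposited values are named CPM but hold a score. Judged from the values, it is the log2 of CPM after adding 0.5 reads, times a constant for each library that makes the column total 1000000, with 24.3 to 30.1% of entries below 0. Whole reads were recovered for 100% of the deposited values (tolerance 0.01), and CPM was computed with the authors' effective library sizes. Total reads were 0.895 to 1.105 times these sizes.

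The 5 genes were matched by symbol (2) or Entrez ID (3). Of the 19225 rows, 18917 matched RefSeq GRCh38.p14, the source of coordinates. Exon overlaps come from GENCODE annotation. Fits used limma 3.58.1 in R 4.3.3, with its trend option, on log2(CPM + 0.5). A gene entered a fit if 3 or more of its libraries reached 1 CPM. A fit of one line had 18 libraries and 12 residual degrees of freedom, and the fit that compared lines had all 54 and 36. Differences between lines and means over lines are read as tests only for genes that passed the filter in each line used. E2+Enza against E2 in LNCaP is given without its test. These limits were set after seeing the data. The fits were tested on simulated data. Intervals cover 95%. Recovered reads of no pair of libraries were identical. Mitochondrial ribosomal RNA made up 0.0084 to 0.196% of reads.

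Alternatives were pseudocounts of 0.25 and 2 CPM, no filter, scaling by total reads, TMM scaling, voom weights, a replicate block, 1 fit of all libraries, and each library left out. Leaving out together 4 libraries that an earlier inspection set apart (C4-2 vehicle 1, C4-2 E2 3, 22Rv1 vehicle 3 and 22Rv1 OSU+Enza 2) was added after seeing the data. The 5 genes, the lists and the tests were chosen with earlier results of these data known. Beside the 5, the text names at most 3 called genes with the smallest p per list and comparison and the 3 most correlated genes of each of the 5. OPRL1 falls outside this rule and was named after its values were seen. Some listed genes are not reported here and are left out of the counts and medians of the lists.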

Additional observations from a re-analysis of the deposited data

Results flagged for a closer look

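The response to Enza differed between the 3 lines for the genes that passed the filter in every line, by the F test of limma over all genes, with adjusted p = 0.00491 for DAPK1, 0.000242 for LRRN1 and 1.25e-07 for CAMK2N1. That F test called 13.3% of all genes. LNCaP had the highest fitted response for each of these 3. Against C4-2, limma called CAMK2N1 but not DAPK1 (adjusted p = 0.136) or LRRN1 (0.186). The LNCaP vehicle libraries served in the choice of the genes, so nothing particular to the genes is read from these calls.

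The response to E2 in the presence of Enza differed between the lines as well, with adjusted p = 3.29e-13 for DAPK1, 2.95e-08 for LRRN1 and 1.1e-16 for CAMK2N1. The genes were picked for their E2 fall in LNCaP, so a difference from that line is favoured by the choice.

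Without Enza the response to E2 differed between 22Rv1 and C4-2 for DAPK1 (adjusted p = 0.00527), LRRN1 (0.0174) and CAMK2N1 (2.55e-07), each weaker in 22Rv1. Groups of 3 libraries were not tested for outlying samples.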

How the results depend on the processing

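Within a line, 1996 of 1998 values of the 5 genes under an alternative kept their side of the threshold, and no called value changed direction. The other 2 gave CAMK2N1 a call with Enza in 22Rv1, so that the count of genes called there moved from 0 to 1 in 1 fit of all libraries, and ranged from 0 to 1 when each library was left out. Values called neither as reported nor under the alternative could change direction and still count as kept. DAPK1 with E2 in 22Rv1, for example, was -0.03 as reported and ran from -0.13 to 0.07. Between lines, 3695 of 3720 values kept their side of the threshold, 19 lost a call, 5 gained a call and 1 called value reversed. The reversed value is the Enza response of OPRK1 in C4-2 minus LNCaP, -1.42 as reported and 0.89 with voom weights (adjusted p = 0.603); the cause was not tested, and OPRK1 held at most 8 reads per C4-2 library. The counts between lines here include OPRK1 and CBLN2. Voom lowered those of both F tests of responses from 5 genes to 4. At a pseudocount of 0.25 CPM CBLN2 lost its call for the Enza response of 22Rv1 against LNCaP (limma, adjusted p = 0.0585). Its difference of C4-2 against LNCaP, which is no test of a response, was -0.96 at that pseudocount. For LRRN1 the E2 response of 22Rv1 minus C4-2 lost its call with total read scaling (0.32, adjusted p = 0.0821) and without the 4 libraries set apart (0.29, 0.187); the count of genes called in that comparison ranged from 2 to 4 over libraries left out. The LRRN1 E2 response with Enza, C4-2 minus LNCaP, lost its call without LNCaP E2+Enza replicate 1 (0.0544) or C4-2 E2+Enza replicate 3 (0.101), its Enza response, 22Rv1 minus C4-2, without 22Rv1 vehicle replicate 1 (0.0635), C4-2 vehicle replicate 3 (0.0618) or C4-2 Enza replicate 2 (0.0554), and its level with Enza, 22Rv1 minus C4-2, without 22Rv1 Enza replicate 2 (0.0524) or C4-2 Enza replicate 3 (0.0582).

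Correlations of the deviations of same-numbered libraries, by number and line, had medians from -0.024 to 0.0244, with single pairs from -0.515 to 0.428. The numbers were not treated as pairs. A replicate block left every count of the 5 genes as reported, with 5 called for E2+Enza against Enza in LNCaP and OPRK1 at -2.54 (adjusted p = 2.64e-16).

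The number of all genes called moved by over 1.5 times in several comparisons. It was 817 for E2 in C4-2 (396 without the 4 libraries set apart), 1184 for Enza in C4-2 (609 without C4-2 Enza replicate 2), 4118 for E2 in 22Rv1 (2193 without 22Rv1 vehicle replicate 1), 98 for Enza in 22Rv1 (410 without 22Rv1 Enza replicate 3), 178 for E2+Enza against E2 in 22Rv1 (280 in 1 fit of all libraries), 2 for OSU in LNCaP (12 without LNCaP vehicle replicate 1) and 14 for OSU+Enza in LNCaP (2 in 1 fit of all libraries). The interaction counts were 210 in C4-2 (96 to 363) and 63 in 22Rv1 (21 to 350), and OSU+Enza in 22Rv1 gave 15 (0 to 86). Between lines, 799 for Enza in C4-2 minus LNCaP ranged from 285 to 1176, 1804 in 22Rv1 minus C4-2 from 784 to 2728, 4615 for E2 in 22Rv1 minus C4-2 from 1833 to 5062, 2125 in the Enza F test from 1229 to 2777, and 71 for OSU with Enza over lines from 48 to 120. With 3 libraries per group, OPRK1 outside LNCaP and CBLN2 in C4-2 were too low for a test of a response.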
